A study of Homo sapiens with 8 samples.

Results

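Genes that govern the passage of cells from G1 into S phase were followed in human oligodendrocyte progenitor cells (OPCs) kept on 3 culture substrates: the D cyclins CCND1, CCND2 and CCND3, their kinase partners CDK4 and CDK6, the inhibitors CDKN1A, CDKN1B, CDKN2C and CDKN2D, and the retinoblastoma gene RB1. The genes are given by name and no threshold on their values was used, but they were picked with earlier results of these data known. All 10 were among the 18201 genes that passed the filter on low counts. The OPCs were derived from the established line H9 of human embryonic stem cells, and had been on the substrate for 2 days without SOX10 overexpression. Polyadenylated RNA was sequenced in 2 libraries from Matrigel, a basement membrane extract that served as the control substrate, in 3 libraries from recombinant full-length vitronectin (VN), and in 3 libraries from VNP2, a peptide designed from vitronectin and fused to a mussel adhesive protein. Every library came from the same cell line, all plates received OPC medium, and the substrate was the labelled difference between the groups. The comparisons ask how the substrates differ in their effect on gene expression before differentiation is forced.

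D cyclins are made in response to growth factors and adhesion, and they activate CDK4 and CDK6, which phosphorylate the retinoblastoma protein and so release E2F transcription factors that switch on genes of DNA synthesis. The INK4 inhibitors, to which the products of CDKN2C (p18) and CDKN2D (p19) belong, bind CDK4 and CDK6 and displace the cyclin, whereas the Cip/Kip proteins p21 (CDKN1A) and p27 (CDKN1B) mainly block complexes that contain CDK2 and can also assemble cyclin D with its kinase. In OPCs, p27 and p21 are known for their part in leaving the cell cycle before or during differentiation, and D cyclins for the mitogen response of dividing progenitors. The transcript level of these genes does not give the level or activity of the proteins, which are much regulated by degradation and phosphorylation.

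Libraries held between 37997896 and 39429453 estimated counts, and counting error of the members is therefore small, the lowest member in any library being CDKN2C with 351 estimated counts. Of the OPC markers, OLIG1, OLIG2, NKX2-2, PDGFRA and CSPG4 passed the filter, whereas SOX10 had under 50 counts over all 8 libraries together, as had PAX6, FOXD3, GFAP, AQP4, MAG and MOG, which mark other neural cell types or stages. VN replicate 1 stood apart from the other VN libraries: a chi-square of the counts of each gene had a median of 2.35 and 2.75 between it and VN replicates 2 and 3, against 0.781 between those and 0.712 to 1.19 within the other substrates, where sampling alone gives 0.455. In that library CDK4, CDKN2C and CDKN2D were higher, and RB1, CDK6 and CDKN1B lower, than in the other VN libraries. Results that rest on it are given with and without it. Exons of CCND1, CCND2, CCND3, CDK4, CDK6 and CDKN1A, 6 of the 10 genes, overlap exons annotated on the other strand (of LTO1, CCND2-AS1, AL513008.1, TSPAN31, AC002454.1 and DINOL); the libraries were stranded, but the strand setting of the quantification is not given in the sources used here. The study describes its experiments as repeated, but the labels do not tie the libraries of a group to separate cultures, so the p-values measure the spread between these samples only, which may be technical. In bulk RNA, fewer cells of a type and less RNA per cell cannot be told apart.

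CDKN1A had the largest fitted change of the 10 genes. It encodes p21, an inhibitor of cyclin-dependent kinases that is induced by p53 and by several signals from adhesion and growth factors. The gene lies on the plus strand of chromosome 6 from base 36676460 to base 36687339 (GRCh38, GENCODE v29). Its main transcript here starts at base 36678658, and the bases before that start are printed because this transcript held most of the gene's counts. The part of the RefSeq window before that start (GRCh38.p14, plus strand, chr6:36678464-36678657), with matches to the GC box GGGCGG in capitals, reads as follows.
CDKN1A promoter: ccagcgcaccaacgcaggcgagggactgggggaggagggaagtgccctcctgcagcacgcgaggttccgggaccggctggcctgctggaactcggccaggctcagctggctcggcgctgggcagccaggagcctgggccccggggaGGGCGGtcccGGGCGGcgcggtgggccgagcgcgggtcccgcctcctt
The capitals mark 2 matches. Over the RefSeq window of 300 bases, which also takes in bases after the start, GGGCGG or its reverse complement was found 4 times, whereas the AP-1 motif TGACTCA, the E2F motifs TTTGGCGC and TTTCCCGC and the TEAD motif CATTCC had no match on either strand. GGGCGG occurs in 45.0% of all 35116 promoter windows of the same length, TGACTCA in 4.95%, CATTCC in 14.03%, TTTCCCGC in 1.63% and TTTGGCGC in 0.652%. Entries were present for 8 of the 10 genes, in 13 windows, and CCND1 and CCND2 had none. No window of these 8 genes held TGACTCA, TTTGGCGC or TTTCCCGC, and CATTCC was matched in 2 windows of CDKN2C and 1 of CCND3. The entry of RB1 lies at an internal start of the gene and not at that of its main transcript.

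Normalized counts of CDKN1A were 5705 and 5675.5 in the Matrigel libraries, 3161, 3118 and 3142 with VN, and 3052, 3081 and 2861 with VNP2. Each Matrigel library stood far above every other library, and the VN libraries stood above the VNP2 libraries by a margin smaller than the spread on VNP2. With means of 5690.5 ± 21.2 (SD, n = 2), 3140 ± 21.8 (n = 3) and 2998 ± 119 (n = 3), CDKN1A fell to 0.552 of its Matrigel level on VN and to 0.527 on VNP2. The log2 fold changes were -0.86 ± 0.041 (SE, adjusted p = 5.88e-07) on VN and -0.92 ± 0.041 (adjusted p = 2.17e-07) on VNP2 in edgeR's quasi-likelihood test with Benjamini-Hochberg adjustment. VNP2 and VN differed by -0.07, with a 95% interval from -0.15 to 0.02 (adjusted p = 0.367).

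CCND1 was the D cyclin with the largest fitted change. It encodes cyclin D1, the D cyclin that is most often tied to growth factor and adhesion signals, and lies on chromosome 11 from base 69641087 to base 69654474, plus strand. Normalized counts were 15046 and 14909 in the Matrigel libraries, 11459, 11388 and 11396 with VN, and 10546, 10695 and 10404 with VNP2. The 3 substrates did not overlap, and the order Matrigel, VN, VNP2 held for every library. CCND1 fell to 0.762 of its Matrigel level on VN, with a log2 fold change of -0.39 ± 0.030 (SE, edgeR, adjusted p = 1.55e-05), and to 0.704 on VNP2, with -0.51 ± 0.030 (adjusted p = 1.55e-06). VNP2 was below VN by -0.11 ± 0.027 (adjusted p = 0.0383) and the call was lost in 10 of 16 alternative fits. Of the fits that each left out 1 library, it passed in that without VN replicate 1 alone, and the others gave adjusted p-values of 0.0773 (without Matrigel replicate 3) to 0.166 (without VNP2 replicate 3).

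CCND2 moved another way. It encodes cyclin D2, known from neural progenitors, and lies on chromosome 12 from base 4273772 to base 4305350, plus strand. Normalized counts were 4982 and 4825 in the Matrigel libraries, 5106, 5207 and 5168 with VN, and 4407.5, 4530.3 and 4532 with VNP2. Every VNP2 library was below every Matrigel library, and every VN library was above them. CCND2 was lower on VNP2 than on VN by -0.20 ± 0.032 on the log2 scale (edgeR, adjusted p = 0.00500), which passed the threshold in all 16 alternative fits. Its fall on VNP2 relative to Matrigel was -0.13 ± 0.036 (adjusted p = 0.0345) and was lost in 8 of the 16, among them the fits without either Matrigel library or without any of the VNP2 libraries (adjusted p = 0.0752 to 0.251). The difference of 0.07 on VN, with a 95% interval from -0.01 to 0.15, did not pass the test (adjusted p = 0.197).

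CCND3, the gene of cyclin D3, was the least abundant D cyclin by counts. It lies on chromosome 6 from base 41934933 to base 42050357, minus strand. Normalized counts were 1220.5 and 1144 in the Matrigel libraries, 1036.5, 986 and 956 with VN, and 1026, 949 and 923 with VNP2. The Matrigel libraries were above all others, and the VN and VNP2 libraries overlapped. CCND3 fell by 0.25 on the log2 scale on VN (SE 0.066, edgeR, adjusted p = 0.0285) and by 0.29 on VNP2 (SE 0.066, adjusted p = 0.0127). Without Matrigel replicate 2, the higher Matrigel library, neither passed the test (-0.20, adjusted p = 0.209 on VN, and -0.24, adjusted p = 0.132 on VNP2). The call on VN was also lost without Matrigel replicate 3, VN replicate 2 or VN replicate 3 (adjusted p = 0.0728, 0.0721 and 0.0905), and that on VNP2 without VNP2 replicate 3 (0.0542). The difference between VNP2 and VN was -0.04, with a 95% interval from -0.17 to 0.09.

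**Figure D1:**
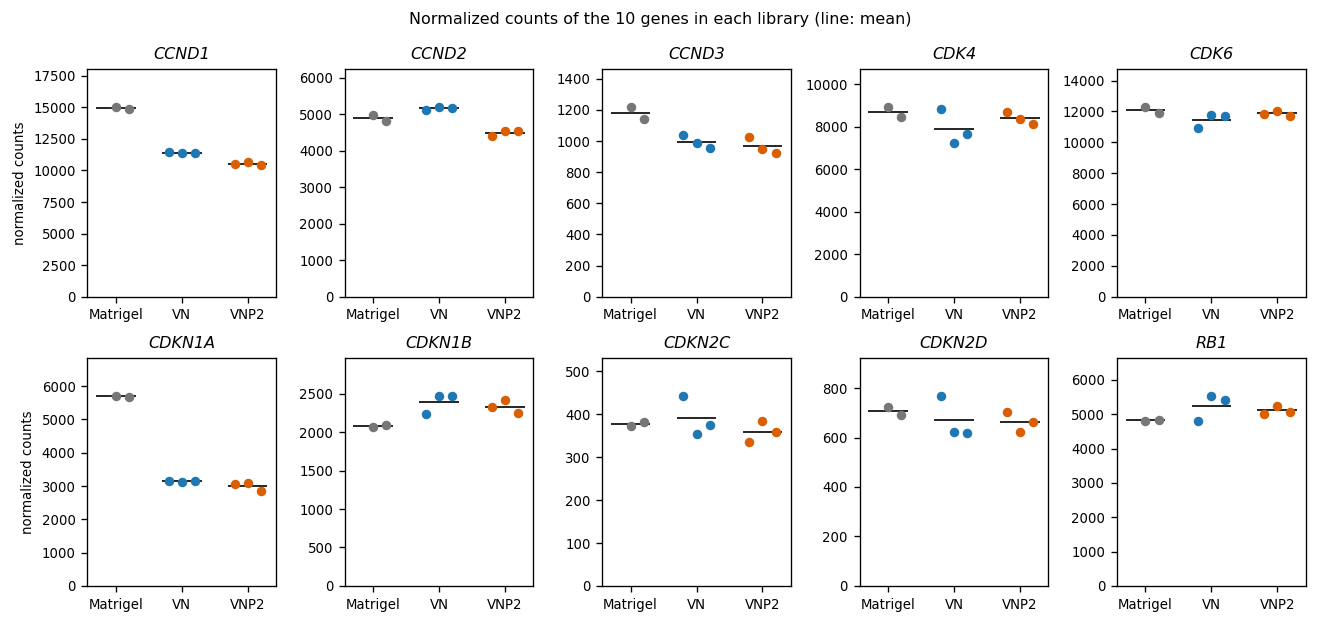
Normalized counts (vertical axes, linear and starting at 0, with a separate scale for each gene) of the 10 genes in each library (points) on Matrigel, VN and VNP2, with the group mean as a line. CDKN1A and CCND1 lie highest in both Matrigel libraries, CCND2 lies lowest on VNP2, and the leftmost VN point, replicate 1, stands apart for CDK4, CDKN2C, CDKN2D and RB1.

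The kinases showed no call in any of the 3 pairs. CDK4 lies on chromosome 12 from base 57747727 to base 57756013, minus strand, and its normalized counts were 8948 and 8483 in the Matrigel libraries, 8836, 7245 and 7651 with VN, and 8704, 8390.0 and 8146 with VNP2. The high VN value came from replicate 1, and all 3 groups overlapped. CDK4 differed by -0.14 on VN, with a 95% interval from -0.30 to 0.02 (edgeR, adjusted p = 0.220), and by -0.05 on VNP2, from -0.21 to 0.11. Without VN replicate 1, CDK4 was lower on VN than on Matrigel by -0.23 (adjusted p = 0.00643) and higher on VNP2 than on VN by 0.18 (adjusted p = 0.0254), both past the threshold.

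CDK6 lies on chromosome 7 from base 92604921 to base 92836594, minus strand. Its normalized counts were 12298 and 11917 in the Matrigel libraries, 10910, 11767 and 11731 with VN, and 11849, 12018 and 11732 with VNP2. The VN libraries were all below the Matrigel libraries, by a margin that did not pass the test: the log2 fold change was -0.08 on VN, with a 95% interval from -0.17 to 0.01, and -0.03 on VNP2, from -0.12 to 0.06. VNP2 and VN differed by 0.05, from -0.03 to 0.13.

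CDKN1B, the gene of p27, is on chromosome 12 from base 12715058 to base 12722371, plus strand. Normalized counts were 2066.5 and 2095 in the Matrigel libraries, 2232, 2468.5 and 2471 with VN, and 2321, 2421 and 2249 with VNP2. All VN and VNP2 libraries were above both Matrigel libraries, opposite in direction to CDKN1A, and VN overlapped VNP2. CDKN1B rose by 0.20 ± 0.057 on VN (SE, edgeR, adjusted p = 0.0387), to 1.149 times its Matrigel level, and its difference of 0.16 ± 0.057 on VNP2 (1.12 times) did not pass the test (adjusted p = 0.0791). The call on VN was lost in 6 of 16 alternative fits, 5 of which left out a library: without Matrigel replicate 2 or 3, VN replicate 2 or 3 or VNP2 replicate 1, the adjusted p was 0.0578 to 0.188. Without VN replicate 1, the call on VN held, with a rise of 0.25. That was the largest rise on VN among the fits that each left out 1 library. In the same fit, the difference on VNP2 passed (0.16, adjusted p = 0.0260).

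The INK4 inhibitors were the least abundant by counts and were not called in any pair. CDKN2C, on chromosome 1 from base 50960745 to base 50974633, plus strand, had normalized counts of 373 and 381 in the Matrigel libraries, 443, 354 and 374 with VN, and 335, 385 and 359 with VNP2. CDKN2D, on chromosome 19 from base 10566462 to base 10569059, minus strand, had 724 and 691 in the Matrigel libraries, 768, 623 and 617 with VN, and 701, 622 and 663 with VNP2. Both genes overlapped between all groups, and VN replicate 1 held the highest value of each. The 95% intervals of their log2 fold changes were wider than those of the other members, from -0.19 to 0.29 for CDKN2C and from -0.30 to 0.14 for CDKN2D on VN, and from -0.31 to 0.17 and from -0.32 to 0.12 on VNP2.

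RB1, the substrate of the cyclin D kinases, spans chromosome 13 from base 48303726 to base 48599436, plus strand. Normalized counts were 4799 and 4838 in the Matrigel libraries, 4795, 5530.5 and 5422 with VN, and 5013, 5244 and 5068 with VNP2. The VNP2 libraries were above both Matrigel libraries, and VN replicate 1 was level with Matrigel while the other VN libraries were above it. The log2 fold change was 0.12 on VN, with a 95% interval from -0.00 to 0.25 (edgeR, adjusted p = 0.176), and 0.08 on VNP2, from -0.04 to 0.21 (adjusted p = 0.375). Without VN replicate 1, RB1 was higher on VN by 0.18 (adjusted p = 0.00579).

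Across the 3 substrates, 4 of the 10 genes were called at an adjusted p under 0.05 (CDKN1A, 2.98e-07; CCND1, 3.64e-06; CCND2, 0.00413; CCND3, 0.0217), where 19.3% of all 18201 genes were. On VN relative to Matrigel, 3 members were lower (CDKN1A, CCND1, CCND3), where 9.41% of all genes were, and 1 was higher (CDKN1B), where 5.81% were, which makes 4 of 10 against 15.2% in either direction. On VNP2 relative to Matrigel, 4 were lower (CDKN1A, CCND1, CCND3, CCND2), where 9.13% of all genes were, and none was higher, where 7.45% were, against 16.6% in either direction. On VNP2 relative to VN, 2 were lower (CCND1, CCND2), where 2.10% were, and none was higher, where 3.07% were, against 5.18% in either direction. Libraries of VN and Matrigel did not overlap for 6 of the 10 genes, against 44.4% of all genes, those of VNP2 and Matrigel for 6, against 48.1%, and those of VNP2 and VN for 3, against 23.5%. Both comparisons with Matrigel use the same 2 control libraries, so their values are set side by side and are not independent. The median log2 fold change of the 10 genes was -0.08 on VN, -0.08 on VNP2 and -0.04 between VNP2 and VN, and that of all genes was 0.01, 0.00 and -0.00. Without VN replicate 1, the number of members called rose to 7 across the substrates, 6 on VN, 5 on VNP2 and 3 between VNP2 and VN, while the number of all genes called rose from 3517 to 4981, from 2770 to 3911, from 3017 to 3653 and from 942 to 1979.

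**Figure D2:**
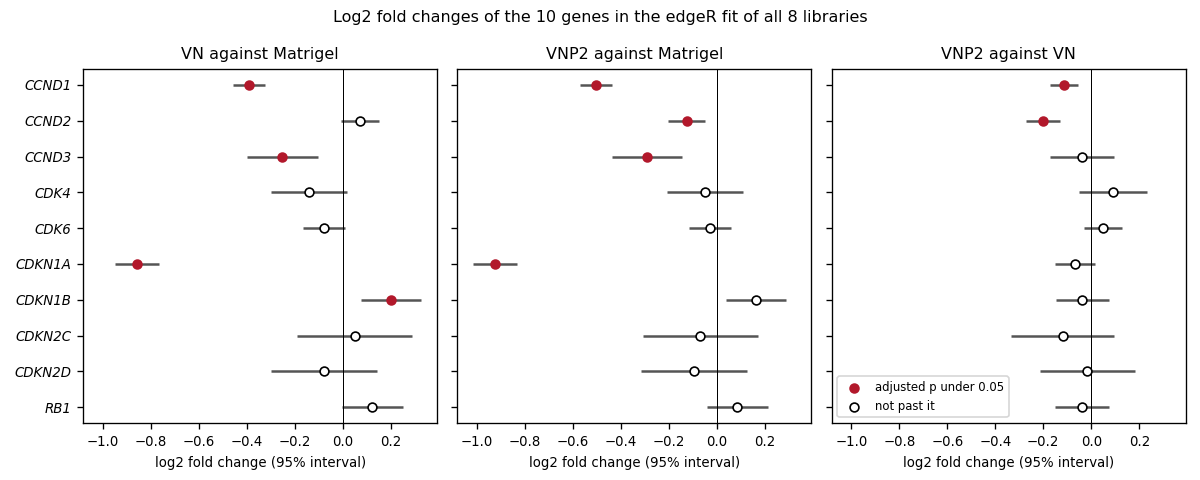
Log2 fold changes (horizontal axes) of the 10 genes in the 3 pairs, with 95% intervals as bars and genes at an adjusted p under 0.05 as filled points. CDKN1A and CCND1 lie furthest below 0 in both comparisons with Matrigel, CCND2 lies furthest below 0 between VNP2 and VN, and CDKN1B is the member called above 0 on VN.

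Levels per transcript length (Salmon's TPM, summed over the transcripts of a gene) allow the genes to be ordered. CDK4 was the most abundant of the 10 on every substrate, with means of 300.0 TPM on Matrigel, 287 on VN and 303 on VNP2. CCND1 followed with 161.5, 130.0 and 119 TPM, and CDKN1A came next with 125, 72.6 and 68.7 TPM. RB1 and CDK6 were close to each other, CDK6 ahead on Matrigel (60.4 against 56.7 TPM) and RB1 ahead on VN (65.4 against 60.5) and VNP2 (63.0 against 62.0), with libraries that overlapped on both vitronectin substrates. CDKN1B (44.9, 54.6 and 52.7 TPM) and CCND2 (35.2, 39.2 and 33.8) stood in the middle. CDKN2D (32.1, 32.04 and 31.5) was next, overlapping CCND3 (30.8, 27.3 and 26.4) on Matrigel and CCND2 on VNP2, and CDKN2C was lowest with 9.53, 10.4 and 9.52 TPM. CDK6 had more counts than CDK4 in every library, whereas per length CDK4, with its transcripts summed, was 4.97, 4.75 and 4.89 times higher. The ratio and the rank of CDK4 rest on that sum, of which CDK4-201 held 45.0 to 52.5% in TPM. On Matrigel, CDK4-201 alone had 139.9 and 145.0 TPM, below CCND1-201 with 156.8 and 155.2. On VN and VNP2, CDK4-201 was above CCND1-201.

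Within the inhibitors, CDKN1A held 59.0 ± 0.042% (SD, n = 2) of the summed TPM of the 4 genes on Matrigel, 42.8 ± 0.41% (n = 3) on VN and 42.3 ± 0.58% (n = 3) on VNP2. CDKN1B held 21.3, 32.2 and 32.4%, CDKN2D 15.2, 18.9 and 19.4%, and CDKN2C 4.51, 6.14 and 5.86%. Summed, these 4 inhibitors reached 211 TPM (Matrigel), 170 (VN) and 162 (VNP2). CDKN1A was thus the most abundant of these 4 on every substrate, by 2.77 times over CDKN1B on Matrigel and 1.33 and 1.30 times on VN and VNP2. Other CDK inhibitor genes, CDKN1C among them, were not part of the sum or the ranking.

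Within the D cyclins, CCND1 held 71.0 ± 0.56% of the summed TPM on Matrigel, 66.2 ± 0.25% on VN and 66.5 ± 0.37% on VNP2. CCND2 held 15.5, 19.9 and 18.9%, and CCND3 13.5, 13.9 and 14.7%. The sum of the D cyclins was 227.5 TPM (Matrigel), 196 (VN) and 179 (VNP2), and no library of a substrate reached the range of another. CDK4 made up 83.2, 82.5 and 83.0% of CDK4 and CDK6 together.

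**Figure D3:**
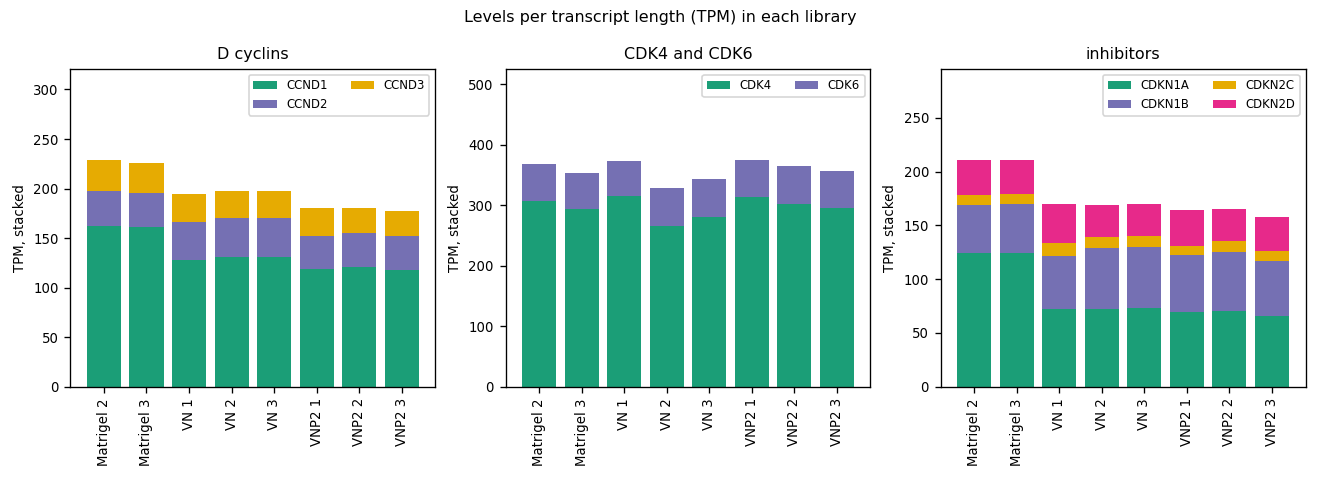
Stacked TPM (vertical axes, starting at 0) of the 3 D cyclins, of CDK4 and CDK6 and of the 4 inhibitors in each library (bars; 2 from Matrigel, 3 from VN and 3 from VNP2). The D cyclin bars fall from Matrigel to VN to VNP2, the CDKN1A part of the inhibitor bars is larger on Matrigel than on either vitronectin substrate, and the kinase bars show no such order.

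Which transcript carried each gene differed among the members. CCND1-201, CCND2-201, CDK6-201, CDKN1B-201 and RB1-201 each held at least 98.7% of their gene's estimated counts in every library. CCND3-203 held 83.3 to 92.7%, CDKN1A-201 79.4 to 91.9% and CDKN2C-203 84.1 to 95.9%. CDK4 was the most divided kinase gene: CDK4-201 held 67.6 to 73.6%, and over all libraries CDK4-215, annotated as a target of nonsense-mediated decay, held 11.2% and the coding CDK4-209 10.03%. CDKN2D was split between CDKN2D-202, with 60.3 to 81.0%, and CDKN2D-201. These shares are Salmon's division of reads among overlapping transcripts and are not direct counts. No test was run on them.

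Pocket proteins and E2F factors act downstream of the cyclin D kinases. Of 18 other pocket protein, E2F and DREAM complex genes, all tested, 5 rose and none fell on VN, 2 rose and none fell on VNP2, and none rose and 2 fell between VNP2 and VN. Of all genes, 5.81% rose and 9.41% fell on VN, 7.45% rose and 9.13% fell on VNP2, and 3.07% rose and 2.10% fell between VNP2 and VN. With libraries left out in turn, 2 to 6 of the 18 rose on VN and 1 to 2 on VNP2, and 1 to 2 fell between VNP2 and VN. Their median log2 fold change was 0.06, 0.04 and 0.02. TFDP2, a dimer partner of E2F factors, rose by 0.42 ± 0.081 on VN and was 0.40 lower on VNP2 than on VN (-0.40 ± 0.072), and RBL2, the gene of the pocket protein p130, rose by 0.22 ± 0.052 on VN and was lower on VNP2 than on VN by -0.21 ± 0.046. E2F2 rose on both substrates, by 0.25 ± 0.055 and 0.29 ± 0.055, and E2F8, a repressor E2F, rose by 0.31 ± 0.067 on VN.

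Among 20 other cyclins, CDKs, CDK phosphatases and CDK inhibitors, 2 rose and 3 fell on VN, 1 rose and 6 fell on VNP2, and none rose and 5 fell between VNP2 and VN. The shares of all genes were 5.81% up and 9.41% down on VN, 7.45% and 9.13% on VNP2, and 3.07% and 2.10% between VNP2 and VN. With libraries left out in turn, 1 to 2 rose and 1 to 3 fell on VN, 0 to 1 rose and 2 to 6 fell on VNP2, and 1 to 8 fell between VNP2 and VN, the most without VN replicate 1. The other INK4 genes were scarce. CDKN2B, the gene of p15, had normalized counts of 144 and 149 in the Matrigel libraries, 68.3, 83.5 and 83.2 with VN, and 62.3, 43.5 and 43.1 with VNP2, and it fell by 0.91 ± 0.18 on VN and by 1.58 ± 0.19 on VNP2 on the log2 scale (edgeR, adjusted p = 0.00846 and 0.000254). CDKN2A, which encodes p16 and, in another frame, ARF, had 38.6 and 24.9 in the Matrigel libraries, 19.7, 41.5 and 41.2 with VN, and 9.24, 8.69 and 10.05 with VNP2. It was lower on VNP2 than on Matrigel by -1.73 ± 0.41 (adjusted p = 0.0155) and lower than on VN by -1.81 ± 0.37 (adjusted p = 0.0180), at counts where sampling error is large. The antisense RNA gene CDKN2B-AS1 overlaps CDKN2B. CDKN1C, the gene of p57 and the remaining Cip/Kip member, rose on both substrates, by 0.28 ± 0.047 and 0.26 ± 0.047. It was named after its values were seen, as a Cip/Kip gene that moved as CDKN1B did and not as CDKN1A. WEE1, a kinase that inhibits CDK1 and CDK2, fell by 0.34 ± 0.050 on VN and by 0.29 ± 0.050 on VNP2, and CDC25B, a CDK-activating phosphatase, rose by 0.20 ± 0.044 on VN and was lower on VNP2 than on VN by -0.32 ± 0.039.

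Levels of D cyclin and p27 proteins depend on ubiquitin ligases and chaperones. Of 17 genes for the turnover and folding of D cyclins, CDK4, CDK6 and the Cip/Kip proteins, 16 were tested and CRYAB did not pass the filter; 2 rose and 3 fell on VN, none rose and 2 fell on VNP2, and none was called between VNP2 and VN. Of all genes, 5.81% rose and 9.41% fell on VN and 9.13% fell on VNP2. These counts were small and depended on single libraries: with libraries left out in turn, 0 to 4 rose and 0 to 4 fell on VN, and 0 to 3 fell on VNP2. CKS1B, a cofactor in p27 degradation, fell by 0.24 ± 0.063 on VN and by 0.25 ± 0.063 on VNP2. AMBRA1, the adaptor that directs D cyclins to degradation, rose by 0.24 ± 0.058 on VN, CUL4B, a ligase scaffold, by 0.21 ± 0.050, and CDC37, which loads CDK4 onto its chaperone, fell by 0.16 ± 0.049.

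Release of E2F switches on genes of DNA synthesis. Of 22 such S phase genes, 2 rose on VN, 4 on VNP2 and 2 between VNP2 and VN, where 5.81, 7.45 and 3.07% of all genes did, and none fell. With libraries left out in turn, 0 to 3, 1 to 8 and 0 to 4 rose, the most without VN replicate 1, and without that library 2 fell on VN and 1 on VNP2. Their median was 0.03 on VN and 0.11 on VNP2, against 0.01 and 0.00 for all genes. UNG, a DNA repair glycosylase, rose by 0.27 ± 0.047 on VNP2, POLA1, a subunit of DNA polymerase alpha, rose by 0.18 ± 0.038 on VN and by 0.21 ± 0.038 on VNP2, and MCM6, of the replicative helicase, by 0.16 ± 0.036 on VNP2. Of 18 mitosis genes, 6 rose on VN, where 5.81% of all genes did, 9 fell on VNP2, where 9.13% did, and 15 were lower on VNP2 than on VN, where 2.10% were. Medians were 0.08, -0.13 and -0.21. AURKA, a mitotic kinase, was lower on VNP2 than on Matrigel by -0.36 ± 0.040 and lower than on VN by -0.32 ± 0.036, and CDC20, HMMR and KIF20A were lower than on Matrigel by -0.30, -0.29 and -0.28. When single libraries were left out, 10 to 14 of the 18 were lower on VNP2 than on VN, 6 to 9 were lower on VNP2 than on Matrigel, and 0 to 5 were higher on VN than on Matrigel.

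CDKN1A is a standard target of p53. Of 21 p53 induced genes other than CDKN1A, 9 fell and none rose on VN, where 9.41% of all genes fell, and 9 fell and none rose on VNP2, where 9.13% did. Their median was -0.24 on VN and -0.23 on VNP2. PHLDA3, an inhibitor of AKT, had normalized counts of 1108 and 1182 in the Matrigel libraries, 712, 592 and 578 with VN, and 773, 803 and 696 with VNP2, and fell by 0.87 ± 0.095 and 0.60 ± 0.095. GADD45A, a growth arrest gene that many stress signals induce, fell by 0.71 ± 0.084 and 0.66 ± 0.084. PLK2 fell by 0.60 ± 0.054 on VN alone and was 0.47 ± 0.049 higher on VNP2 than on VN, while FDXR fell by 0.38 ± 0.081 and 0.49 ± 0.081. MDM2, the principal negative regulator of p53, was not called, with -0.06 on VN and -0.23 on VNP2 (edgeR, adjusted p = 0.618 and 0.0525). MDM2 was named after its values were seen. When single libraries were left out, 5 to 10 of the 21 fell on VN and 5 to 13 on VNP2.

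The last list held factors and pathway reporters upstream of the D cyclins and CDKN1B. Of its 21 genes, 8 fell and none rose on VN, 7 fell and 4 rose on VNP2, and 7 were higher and 1 lower on VNP2 than on VN. The shares of all genes were 9.41% down on VN, 9.13% down and 7.45% up on VNP2, and 3.07% up and 2.10% down between VNP2 and VN. CYR61, a target of YAP and SRF, had normalized counts of 10048 and 10654 in the Matrigel libraries, 3378, 3092 and 3179 with VN, and 2443, 2411 and 2308 with VNP2, and fell by 1.69 ± 0.047 and 2.12 ± 0.048. It followed the order of CCND1, Matrigel above VN above VNP2. CTGF, of the same family, fell by 1.32 ± 0.040 on VN and by 0.96 ± 0.040 on VNP2, with VN lowest, an order that CCND1 did not have. FOSL1, an AP-1 subunit, fell by 2.10 ± 0.17 and 1.69 ± 0.16, and EGR1, an immediate early factor, by 1.58 ± 0.18 and 0.89 ± 0.17. MYC fell by 0.53 ± 0.13 and 0.64 ± 0.13, and was named after its values were seen. None of the 4 genes that rose on VNP2 is among those named. The median of the 21 genes was -0.09 on VN, -0.09 on VNP2 and 0.06 between VNP2 and VN. When single libraries were left out, 0 to 1 rose and 6 to 9 fell on VN. On VNP2, 4 to 5 rose and 6 to 7 fell, and 6 to 7 were higher on VNP2 than on VN.

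**Figure D4:**
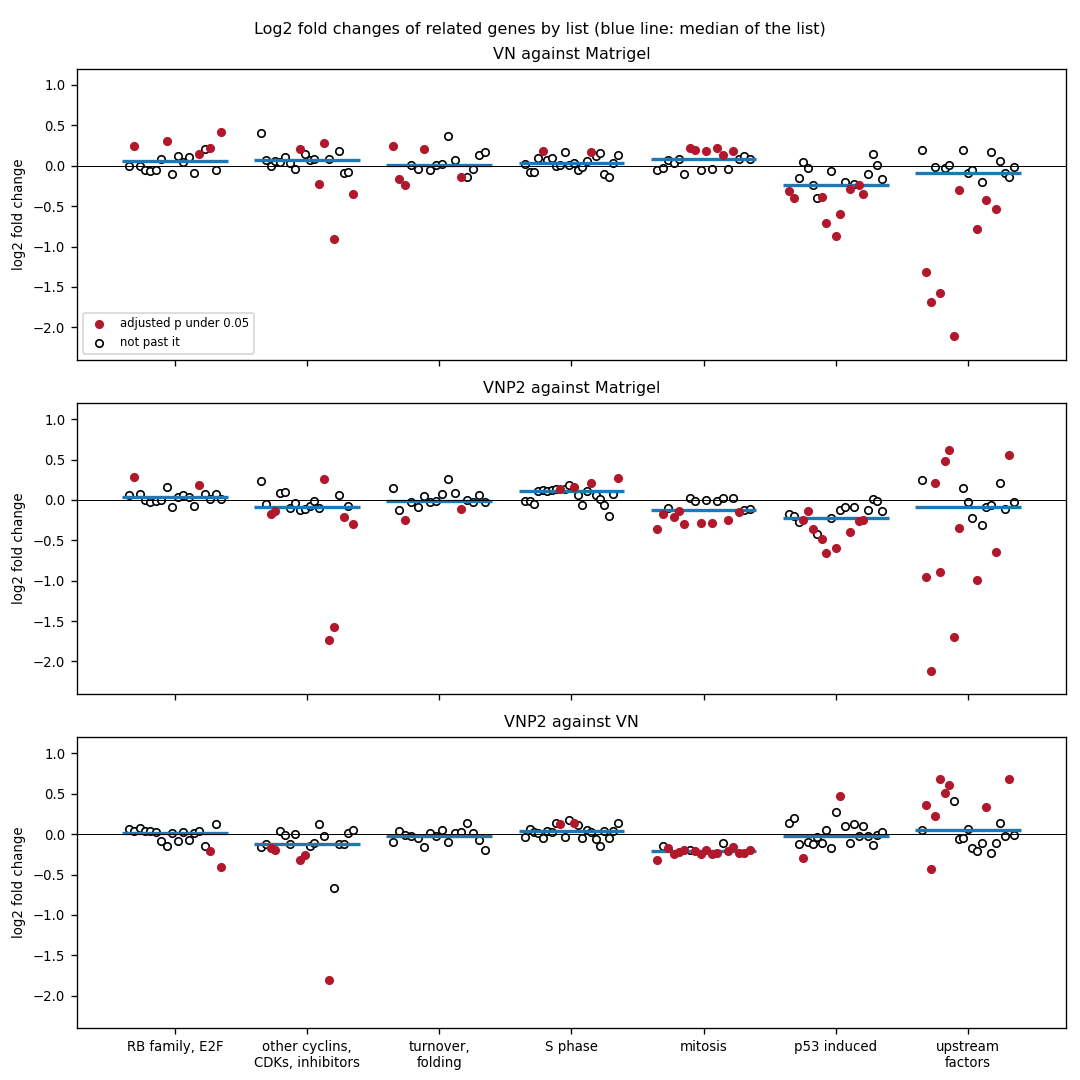
Log2 fold changes (vertical axes, the same scale in all panels) of the tested genes of 7 related lists (points) for the 3 pairs, filled where the adjusted p is under 0.05, with the median of each list as a line. The p53 induced genes lie mostly below 0 on both vitronectin substrates, and the mitosis genes lie below 0 between VNP2 and VN.

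The genes whose levels ran most closely with the 3 members of lowest adjusted p were looked for among 12986 genes whose normalized counts averaged 100 or more, by Pearson's r of log2 normalized counts over the 8 libraries. With 8 libraries in 3 groups, such a coefficient mainly describes the pattern of the group means, and it is given without a test. For CDKN1A they were VCL (r = 0.998), AHNAK (0.997) and ANKRD1 (0.997). VCL encodes vinculin of focal adhesions, and ANKRD1 is a YAP target; ANKRD1 had 6014 and 6816 normalized counts on Matrigel and 304 to 485 on the other substrates. For CCND1 they were GPC4 (0.998), a cell surface proteoglycan gene, CYR61 (0.998) and TPM1 (0.998), the gene of a tropomyosin that binds actin. For CCND2 they were LINC01551 (0.992), RIPPLY3 (0.991) and ESRG (0.986). RIPPLY3, a transcriptional corepressor gene, had 449 and 500 normalized counts on Matrigel, 591 to 611 on VN and 260 to 320 on VNP2.

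Markers of other cell types moved with the substrates and are given beside these results. For comparison with the counts of markers called, 5.81% of all genes rose and 9.41% fell on VN. On VNP2, 7.45% of all genes rose and 9.13% fell. The summed TPM of 8 neuron markers was 789 to 823 (Matrigel), 894 to 950 (VN) and 974 to 997 (VNP2), and 5 and 6 of them were higher on VN and VNP2. Of 8 mesenchymal markers the sum was 503 to 513, 573 to 611 and 496 to 533 TPM, and relative to Matrigel VN had 3 of them higher and 1 lower, and VNP2 5 and 1. Of 6 OPC markers it was 107 to 109, 136 to 138 and 138 to 146 TPM, with 2 and 5 higher of the 5 tested, and of 7 neural progenitor markers 3589 to 3661, 3074 to 3134 and 3360 to 3408 TPM. The neural progenitor list was divided: of 6 tested, 2 were higher and 2 lower on VN, and likewise on VNP2. Its median log2 fold change was 0.09 on VN and 0.14 on VNP2. Of 5 pluripotent cell markers the sum was 91.2 to 95.9, 79.9 to 81.9 and 75.7 to 79.6 TPM, and of 5 neural crest markers 44.7 to 45.7, 59.4 to 69.3 and 61.1 to 62.9 TPM. Among the pluripotent cell markers, none was higher and 1 lower on VN, and 1 was higher and 2 lower on VNP2. Their median log2 fold change was 0.02 on VN and -0.39 on VNP2. Among the 4 neural crest markers tested, 1 was higher on VN and 2 on VNP2, and none was lower. By counts SOX9 made up most of this list, with 3129 to 4562 normalized counts over the libraries. TFAP2A had 70.9 to 181, SNAI2 61.1 to 100.03 and TFAP2B 3.14 to 19.8. Of 3 astrocyte markers the sum was at most 0.704 TPM in any library, and of 4 oligodendrocyte markers 26.3 to 31.4 TPM over all libraries. Of the 2 oligodendrocyte markers tested, MBP, a myelin gene named after its values were seen, was called: its normalized counts were 469 and 434 in the Matrigel libraries, 473, 465 and 522 with VN, and 324, 403 and 295 with VNP2, lower on VNP2 than on Matrigel by -0.41 ± 0.12 (edgeR, adjusted p = 0.0437) and lower than on VN by -0.52 ± 0.11 (adjusted p = 0.0234). No marker was at 0 in every library, and their part in the changes of CDKN1A, the D cyclins and CDKN1B was not tested.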

How the data were processed

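RNA of 8 libraries was analysed (2 Matrigel, 3 VN, 3 VNP2), grouped by the substrate in the labels. The authors trimmed reads with Trim Galore and quantified GENCODE v32 transcripts of GRCh38 with Salmon. They deposited its estimated counts and TPM per transcript, neither changed further, and a signal of normalized counts per gene made with tximport and DESeq2 (1.27.12 per the labels). The labels give GRCh38.p13 as the build. No column of unassigned samples was present, and no column of the authors' own comparisons was used.

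Transcripts were matched by identifier to GENCODE v29 (205225 of 226608, holding 98.8 to 98.9% of the counts), summed per gene and rounded, which leaves out what the older release lacks. Normalized counts were computed from these sums on the scale of the authors' table, and the means of the 10 genes were 0.9998 to 1.0 times those in it. Genes passing filterByExpr (minimum count 10, minimum total 15) were fitted together with edgeR 4.0.16 (R 4.3.3), TMM and offsets for transcript length, the design holding the 3 groups and no block. Quasi-likelihood tests were two-sided, adjusted by Benjamini-Hochberg over all 18201 genes, with calls made below an adjusted p of 0.05. The common dispersion was 0.0037. Intervals are 95%. A count of n carries a sampling error of about its square root.

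The members and gene lists were chosen with earlier results of these data known. The lists were pocket proteins, E2F and DREAM subunits; other cyclins, CDKs, phosphatases and inhibitors; turnover and folding; E2F induced S phase genes; mitosis genes; p53 induced genes; upstream factors; and markers of 8 cell types. Named are all members, up to 4 called genes of each list with the largest change in any pair, and the 3 genes most like each of the 3 members of lowest adjusted p; others are said to have been named after their values were seen. A gene that this rule names is not reported here.

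Alternatives were DESeq2 1.42.0, RLE factors, dropping the length offsets, dropping the filter (1 count sufficed) or raising it to 50 counts per library, blocking by replicate number, fitting a pair of substrates by itself, limma 3.58.1 on the log2 of the deposited normalized counts (pseudocount 1), and omitting each library in turn. Counts were summed and described with Python 3.11.15 and pandas 2.3.3, which were not tested on simulated data. The edgeR fit was tested on simulated data for VN against Matrigel with 17982 genes. Of the changed genes, 90 of 100 changed 1.5-fold and 100 of 100 changed 2-fold were called. There were 6 false calls, and 0 in a contrast without changes. The changed genes had mean normalized counts of at least 100, and no simulated library was set apart as VN replicate 1 was. Changes under 1.5-fold were not simulated, so the recovery of such changes is not known.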

Additional observations from a re-analysis of the deposited data

How the results depend on the processing

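CDKN1A and CCND1 relative to Matrigel and CCND2 between VNP2 and VN passed the threshold in all 16 alternatives, with log2 fold changes of -0.88 to -0.85 and -0.94 to -0.89 for CDKN1A, -0.40 to -0.38 and -0.53 to -0.49 for CCND1, and -0.21 to -0.19 for CCND2. Of 480 member values under the alternatives, 30 lost and 8 gained significance, none called reversed, and 7 uncalled values changed sign. CCND1 between VNP2 and VN ranged over -0.14 to -0.10 and lost its call in 10 of 16, CCND2 on VNP2 over -0.15 to -0.10 (8 of 16), CDKN1B on VN over 0.18 to 0.25 (6 of 16), and CCND3 over -0.30 to -0.20 on VN (4 of 16) and -0.34 to -0.24 on VNP2 (2 of 16), the last 2 in fits that each left out 1 library. The cause was not tested, beyond the fewer samples of those fits.

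Between VNP2 and VN, 1 member and not 2 was called without the filter, with limma on the authors' normalized counts, and with only the libraries of the pair, CCND1 being lost in each (adjusted p = 0.0863, 0.0540 and 0.0711). With each library left out in turn, members called ranged from 3 to 7 across the substrates, 2 to 6 on VN, 2 to 5 on VNP2 and 1 to 3 between VNP2 and VN, and all genes called from 1881 to 4981, 1184 to 3911, 1611 to 3653 and 544 to 1979. Leaving out either Matrigel library gave the lowest all-gene counts in the comparisons with Matrigel (1919 and 1881 across the substrates), where the lone Matrigel library is assumed to vary like the other groups, and leaving out VN replicate 1 gave the highest.

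Replicate numbers are shared by the groups, but deviations of same-numbered libraries correlated at -0.133 to 0.161, not over 0.1 in every pair, so the numbers served as names. With them as a block, members called were 5 across the substrates, 6 on VN, 4 on VNP2 and 2 between VNP2 and VN: CDK4 (-0.20, adjusted p = 0.0362) and RB1 (0.16, adjusted p = 0.0432) passed on VN, CDKN1B passed on VNP2 (0.19, adjusted p = 0.0489), and CCND2 did not pass there (-0.12, adjusted p = 0.0518). All genes called under the block were 3990, 3405, 3155 and 1167. As shares of counts and not TPM, CDKN1A held 64.7, 47.3 and 47.2% of the inhibitors, and CDK4 held 42.0, 40.0 and 42.2% of CDK4 and CDK6. Only the libraries of the pair gives no value across the substrates.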
